A study of Mus musculus with 18 samples.

Results

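The fibroblast matrix genes described here are 46 genes whose products build, process or anchor the connective tissue matrix, or mark the fibroblasts that make it. They were read in cultures of mouse embryonic stem (ES) cells whose lines had been established on embryonic fibroblasts as feeder cells. A probe set, a group of short oligonucleotides that reads a transcript, was taken as a member when the annotation of its chip gave a gene of the list as its only symbol. Of the 46 genes, 44 had at least 1 such probe set, out of 15964 genes with a probe set of their own on the 3 chips hybridized, U74Av2, U74Bv2 and U74Cv2. Fbn1, which encodes fibrillin 1, had none, and Thbs1, which encodes thrombospondin 1, was found only on a probe set shared with Pald1. The 44 genes had 85 probe sets, of which 66 lay on U74Av2, 9 on U74Bv2 and 10 on U74Cv2, and 26 genes had more than 1.

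The first group, called WT here, consisted of 3 dishes of wildtype FVB/N ES cells kept with leukaemia inhibitory factor (LIF). The second, called STAT3-MER, consisted of 3 dishes of FVB/N ES cells of a transgenic line that overexpresses STAT3-MER, kept with 4-hydroxytamoxifen (OHT) and no LIF. These cells carry, in the hemizygous state, a chicken β-actin promoter that drives mouse STAT3 fused to an altered ligand-binding part of the estrogen receptor that responds to OHT. Cell line, supplement and transgene therefore differ together between the groups, and the dishes of a group were cultivated independently but from a single line. The feeder fibroblasts came from foetuses of CD-1-M-TKneo mice and had been growth-arrested with mitomycin C, and both groups share them. Whether they were removed before RNA was isolated is not given in the sources used here. The comparison asks which transcripts differ between ES cells kept by LIF and ES cells kept by OHT-activated STAT3.

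Fibroblasts secrete procollagens, which are folded with the help of a chaperone, trimmed outside the cell, assembled into fibrils and crosslinked by lysyl oxidases, while proteoglycans and glycoproteins space the fibrils and link them to cells. Metalloproteinases cut this matrix, and tissue inhibitors of metalloproteinases restrain them. Fibroblasts in culture also make smooth muscle type contractile proteins. Undifferentiated ES cells are known for making little fibrillar collagen, whereas parietal endoderm, an extraembryonic cell type that ES cultures can form, makes Sparc and basement membrane proteins, so that not every gene of the list is particular to fibroblasts.

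Start-site sequences are shown for a fibrillar collagen whose brighter probe set was lowest in WT dish 2 and STAT3-MER dish 1, Col1a2, and for a member that was lowest in other dishes, Mmp3. The 250 bases before the start of each gene (RefSeq, build GRCm38.p6, plus strand, written 5′ to 3′) were searched on both strands for 3 motifs, and matches are in capitals. A CCAAT box was taken by its own letters. A TATA box, near which transcription often starts, was the letters TATAAA. An AP-1 site, which is read by Jun and Fos factors, was the letters TGANTCA. No match overlapped another.
Col1a2, chr6:4505368-4505617: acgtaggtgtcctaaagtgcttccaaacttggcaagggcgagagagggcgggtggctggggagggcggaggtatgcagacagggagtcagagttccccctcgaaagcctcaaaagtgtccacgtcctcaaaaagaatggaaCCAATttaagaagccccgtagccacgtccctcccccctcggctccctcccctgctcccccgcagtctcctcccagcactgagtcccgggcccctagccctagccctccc
Mmp3, chr9:7445572-7445821: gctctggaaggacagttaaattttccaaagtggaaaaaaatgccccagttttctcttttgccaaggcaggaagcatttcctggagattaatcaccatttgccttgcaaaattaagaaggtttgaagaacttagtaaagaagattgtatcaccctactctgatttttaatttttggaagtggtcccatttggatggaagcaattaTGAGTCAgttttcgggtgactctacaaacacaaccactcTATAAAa
In the Col1a2 stretch a CCAAT box begins 109 bases before the start and neither of the others was found. In the Mmp3 stretch an AP-1 site begins 46 bases before the start and a TATA box 7 bases before it. Promoters were held for 33 of the 46 genes, 38 promoters in all. A TATA box was found in 12 of the 38 (31.6%) against 12.4% of 32851 promoters of all genes, a CCAAT box in 11 (28.9%) against 33.8%, and an AP-1 site in 3 (7.89%) against 6.75%. These shares describe letters in the windows and not binding.

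All 18 arrays had been brought to a common level (trimmed mean signal of 500.1 to 500.3), so a signal below is a linear intensity on that scale, without a detection call. ES cell markers were present in every dish: Pou5f1 gave signals of 2157 to 8348, Nanog of 7035 to 14179 and Sox2 of 8933 to 13355. Among the 12 marker probe sets with a mean signal of at least 200 on U74Av2, the summed signal was 59582 to 88621 in WT and 65343 to 75288 in STAT3-MER. Replicate numbers could be followed across chips through the Gapdh control, by the ratio of its middle to its 3′ probe set. On U74Av2 this ratio was 0.261 in WT dish 1 and 0.378 in WT dish 2, on U74Bv2 0.447 and 0.262, and on U74Cv2 0.459 and 0.265. WT dish 3 had the highest ratio of its group on each chip (0.484, 0.509 and 0.558), and STAT3-MER dish 2 the lowest of its group (0.316, 0.315 and 0.368). WT numbers 1 and 2 may thus name different dishes on U74Av2 than on the other chips, and each chip was analysed on its own.

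Transcripts of the fibroblast matrix genes were found in all 6 dishes, and they varied widely between dishes of the same group. A mean signal over the 6 dishes of at least 200 was reached by 60 of the 85 probe sets, from 39 genes, and 27 genes had a probe set of at least 1000. Cnn1, Mmp2, Pdgfrb, Tgfbi and Vim stayed under 200 on every probe set they had. Summed over the 45 U74Av2 probe sets of at least 200, the signal was 97687, 57677 and 131419 in WT dishes 1, 2 and 3 and 33945, 119511 and 103961 in STAT3-MER dishes 1, 2 and 3. STAT3-MER dish 1 was thus lowest of all, 3.52-fold under the highest dish of its group, and WT dish 2 was lowest in its own group. In RNA of whole dishes, fewer fibroblasts and less of these transcripts per fibroblast cannot be told apart. No array of feeder cells alone was analysed here, and the source of the transcripts was not tested. Over all U74Av2 probe sets, the deviations of WT dish 2 and STAT3-MER dish 1 from their group means were correlated (0.41). The part of RNA quality or array differences in the low dishes was not tested.

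The lowest dish of each group was shared by most members on U74Av2. STAT3-MER dish 1 was the lowest of its group in 43 of the 45 probe sets, against 36.0% of all 5549 probe sets of at least 200 on that chip. The exceptions were Mmp3, lowest in dish 2, and Twist1, lowest in dish 3. WT dish 2 was lowest in 34 of 45 (29.8% of all), and WT dish 3 highest in 29 (28.3% of all). STAT3-MER dish 2 was highest in 30 and dish 3 in 15. The spread was wide as well, with a median ratio of highest to lowest dish of 4.48 for the members against 1.79 for all probe sets of at least 200. A ratio of 5 or more was reached by 18 of the 45, against 4.13% of all. A ratio under 2 was kept by 5 of the 45, Fn1, Timp3, Cnn2, Twist1 and 1 of the 2 Col1a2 probe sets, against 63.1% of all.

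**Figure D1:**
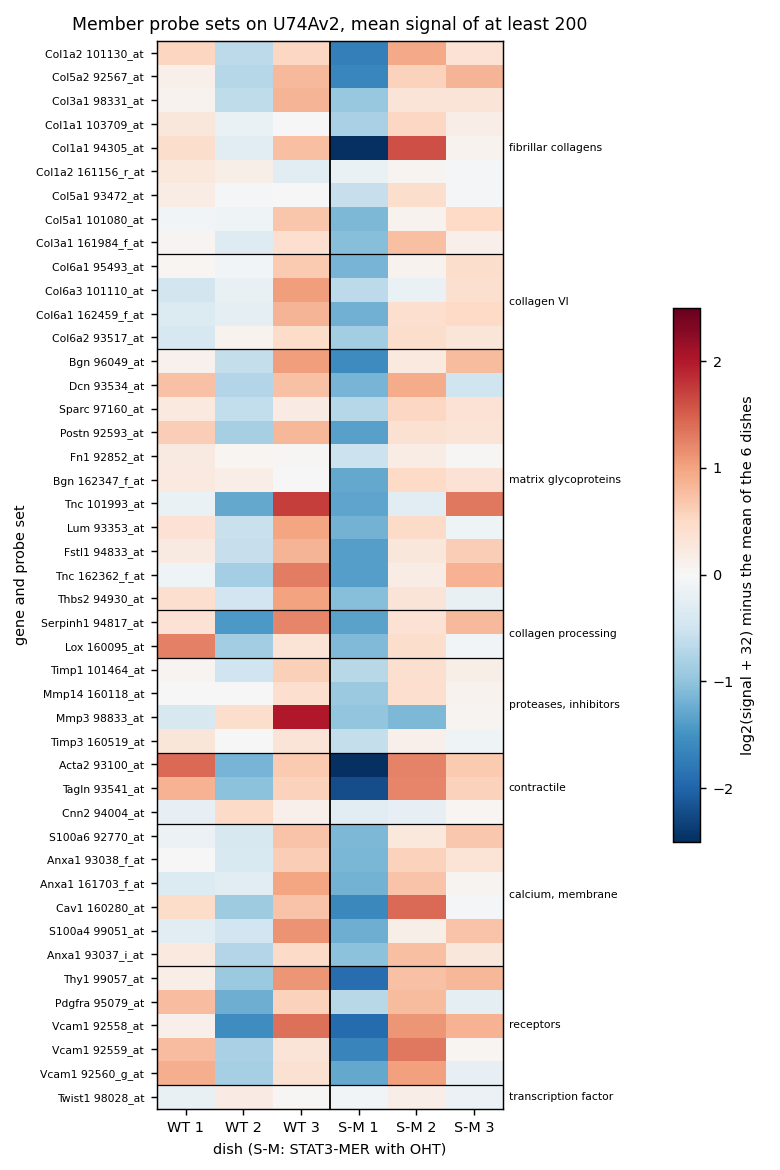
Deviation of each member probe set (rows, grouped by role) from its mean over the 6 dishes (columns; S-M, STAT3-MER with OHT), as log2(signal + 32), on U74Av2 for a mean signal of at least 200. STAT3-MER dish 1 is blue in nearly every row and WT dish 2 in most, while Twist1, Cnn2 and Fn1 stay pale.

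The fibrillar collagens, which form the tensile fibrils of the matrix, had 9 probe sets of at least 200 on U74Av2, and STAT3-MER dish 1 was the lowest of its group in all 9 and WT dish 2 in 8. Values of 3 dishes are given in the order of their numbers, here and below. Col1a2 (101130_at), the α2 chain of type I collagen, gave WT signals of 9561, 4149 and 9352 and STAT3-MER signals of 1978, 12564 and 8411. Col5a2 (92567_at), a type V chain that takes part in starting fibrils, gave WT signals of 2563, 1408 and 4116 and STAT3-MER signals of 729, 3499 and 4222. In both genes STAT3-MER dish 1 was lowest and WT dish 2 next, and the other 4 dishes overlapped. Col3a1 (98331_at), the chain of type III collagen, gave WT signals of 2417, 1453 and 4077 and STAT3-MER signals of 1157, 2834 and 2824. Col1a1 (103709_at), the α1 chain of type I collagen, gave WT signals of 2677, 1939 and 2191 and STAT3-MER signals of 1226, 3131 and 2463, and its second probe set (94305_at) 1393, 834 and 1734 and 137, 3168 and 1072. The order was the same in STAT3-MER in both Col1a1 probe sets, but the ratio of highest to lowest dish was 2.55 in the first and 23.1 in the second. Type I chains also differed by probe set for Col1a2, whose second probe set (161156_r_at) gave WT signals of 1183, 1079.5 and 812 and STAT3-MER signals of 865, 1022 and 948, almost level. The suffix letters f, r, s, g and i mark sets designed with relaxed rules or shared sequence, so that their signals may include other transcripts. Col5a1, the other type V chain, had its strongest signal on U74Cv2 (135189_f_at), with WT signals of 3251, 6288 and 8550.4 and STAT3-MER signals of 1744, 9100.2 and 6345. There WT dish 1 and not dish 2 was lowest in its group.

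**Figure D2:**
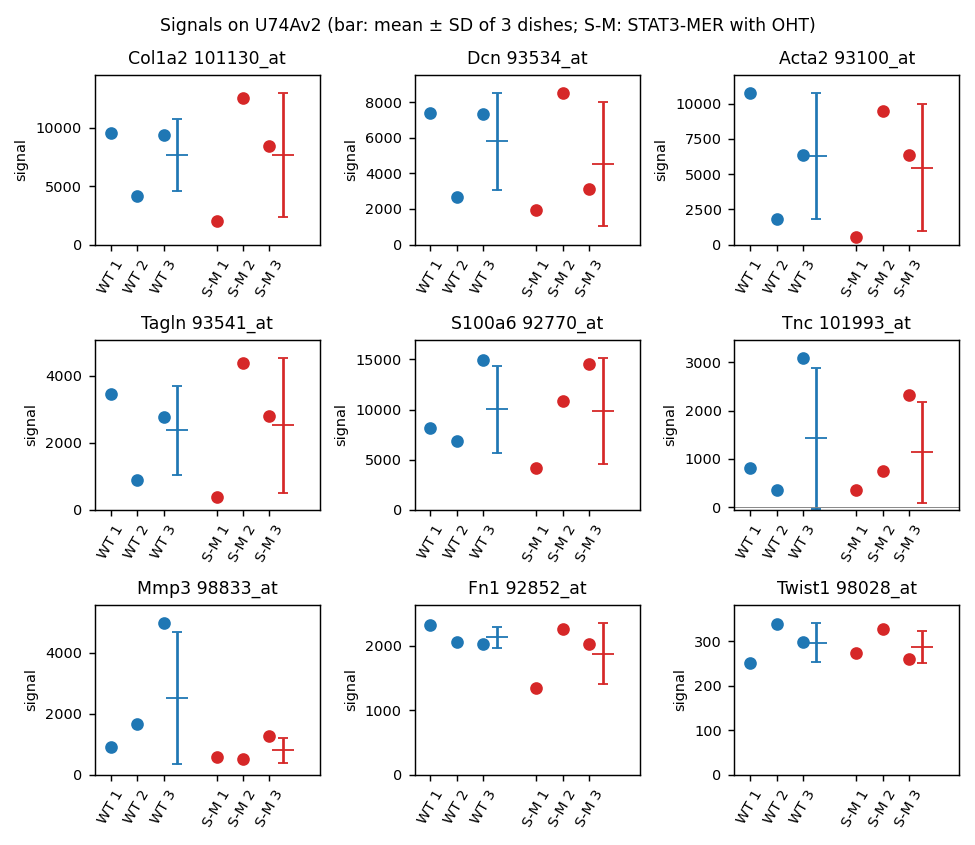
Signals (linear, arbitrary units) of 9 member probe sets in each dish on U74Av2, with the mean and SD of the 3 dishes of a group beside the points. Col1a2, Dcn, Acta2 and Tagln are lowest in STAT3-MER dish 1, Tnc and Mmp3 are highest in WT dish 3, and Fn1 and Twist1 vary little.

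Collagen VI, which forms beaded filaments around cells, was highest in the third dish of WT, and in that of STAT3-MER except for Col6a2. Col6a1 (95493_at) gave WT signals of 1984, 1815 and 3013 and STAT3-MER signals of 835, 2030.4 and 2587. Col6a3 (169943_f_at on U74Cv2) gave WT signals of 4071, 2597 and 5927 and STAT3-MER signals of 2517, 2596 and 3941, and on U74Av2 (101110_at) 1068, 1296 and 3056 and 924, 1313 and 1953. Dish 3 was highest of both groups in these 3 probe sets, whereas Col1a2 was highest in WT dish 1 and in STAT3-MER dish 2. Col6a2 (93517_at) was dimmer and highest in STAT3-MER dish 2, with WT signals of 189, 279 and 371 and STAT3-MER signals of 129, 365 and 331.

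Among the glycoproteins and proteoglycans, decorin and the brighter biglycan probe sets differed in which dish was highest. Dcn (93534_at), a small proteoglycan that binds collagen fibrils, gave WT signals of 7382, 2646 and 7353 and STAT3-MER signals of 1959, 8503 and 3128. Lum (93353_at), lumican, a related fibril-binding proteoglycan, gave WT signals of 1376, 711 and 2141 and STAT3-MER signals of 445, 1494 and 979. Both were higher in STAT3-MER dish 2 than in dish 3, for Dcn 2.72-fold. Bgn (167023_f_at on U74Cv2), biglycan, gave WT signals of 9221, 18449 and 30941 and STAT3-MER signals of 3285, 21994 and 22653, and on U74Av2 (96049_at) 5090.4, 3086 and 9656 and 1546, 5565 and 8103. These 2 Bgn probe sets did not have the excess of STAT3-MER dish 2 over dish 3 that Dcn had, but a dimmer one on U74Av2 (162347_f_at) was highest in STAT3-MER dish 2 and lowest in WT dish 3 (WT 1706, 1602 and 1427, STAT3-MER 565, 2039 and 1841). WT dish 1 of Bgn lay above dish 2 on U74Av2 and below it on U74Cv2.

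Tnc (101993_at), tenascin C, a glycoprotein of growing and wounded tissue, gave WT signals of 812, 358 and 3100.2 and STAT3-MER signals of 349, 744 and 2322. It stood out by the third dish of both groups, 8.67-fold over WT dish 2 and 6.66-fold over STAT3-MER dish 1, and its second probe set ran the same way (WT 345, 191 and 949, STAT3-MER 125, 432 and 703). Postn (92593_at), periostin, a collagen-binding glycoprotein, gave WT signals of 2839, 1027 and 3326 and STAT3-MER signals of 701, 2419 and 2365. Fstl1 (94833_at), a secreted follistatin-like protein, gave WT signals of 773, 429 and 1207 and STAT3-MER signals of 232, 805 and 1021. Each of these was lowest in STAT3-MER dish 1 and WT dish 2.

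The brightest probe sets of Sparc, fibronectin and thrombospondin 2 varied less than the median member. Sparc (97160_at), a collagen-binding protein, gave WT signals of 2487, 1354 and 2402 and STAT3-MER signals of 1259, 3003 and 2710.0. Fn1 (92852_at), fibronectin, which links cells to collagen, gave WT signals of 2322, 2053 and 2024 and STAT3-MER signals of 1345, 2259 and 2028. The highest and lowest dishes of Fn1 differed 1.73-fold, and the WT dishes 1.15-fold. Thbs2 (167486_i_at on U74Cv2), an adhesive glycoprotein, gave WT signals of 1701, 2681 and 3501 and STAT3-MER signals of 2101, 2607 and 1946. The dimmer probe sets varied more, 4.80-fold for Thbs2 on U74Av2 (94930_at, 170 to 813) and 4.30-fold for Sparc on U74Bv2 (164300_i_at, 109 to 469). Tgfbi, another adhesive protein, gave signals of at most 141 on both of its probe sets.

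Of the collagen processing genes, Serpinh1 (94817_at), the collagen chaperone HSP47, gave WT signals of 1410.3, 385 and 2593 and STAT3-MER signals of 412, 1411 and 1938. Lox (160095_at), the lysyl oxidase that crosslinks collagen, gave WT signals of 787, 155 and 401 and STAT3-MER signals of 126, 432 and 293. Serpinh1 was highest in WT dish 3, and Lox in WT dish 1, where it was 1.96-fold over dish 3. Loxl1 (170492_at on U74Cv2), a relative that crosslinks elastin, gave WT signals of 496, 544 and 676 and STAT3-MER signals of 431, 607 and 484, a 1.57-fold range.

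The proteases and their inhibitors differed among themselves in dish order, with Mmp3 and Timp2 apart from Timp1 and Timp3. Mmp3 (98833_at), stromelysin 1, gave WT signals of 908, 1660.0 and 4979 and STAT3-MER signals of 597, 536 and 1275. WT dish 3 was highest and the STAT3-MER dishes overlapped the lower WT dishes, and STAT3-MER dish 1 was above dish 2. Mmp14 (160118_at), a membrane-bound collagenase, gave WT signals of 1968, 1974 and 2625 and STAT3-MER signals of 1014, 2650.3 and 2098. Timp1 (101464_at), an inhibitor of metalloproteinases, gave WT signals of 3309.9, 2236 and 4797 and STAT3-MER signals of 1944, 4179 and 3501, lowest in WT dish 2 and STAT3-MER dish 1. Timp3 (160519_at), the inhibitor held in the matrix, had that order with a narrower range, WT signals of 988, 789 and 1009 and STAT3-MER signals of 515, 871 and 738. Timp2 (168621_i_at on U74Cv2), another inhibitor, gave WT signals of 2600.4, 2434 and 2336 and STAT3-MER signals of 2891, 2759 and 2808. Timp2 was the flattest member, 1.24-fold between its highest and lowest dish, and the one member probe set with every STAT3-MER dish above every WT dish. Its 3 probe sets on U74Av2 were dim, with signals of 4.37 to 171. Mmp2, gelatinase A, was dim on both of its probe sets (6.30 to 119).

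Among the contractile genes the ratio of highest to lowest dish ran from 1.70 for Cnn2 to 19.4 for Acta2 on U74Av2. Acta2 (93100_at), smooth muscle α-actin, gave WT signals of 10734, 1791 and 6359 and STAT3-MER signals of 553, 9487 and 6327. Tagln (93541_at), transgelin, an actin-binding protein, gave WT signals of 3437, 893 and 2771 and STAT3-MER signals of 377, 4364 and 2806. STAT3-MER dish 2 was 17.2-fold over dish 1 for Acta2 and 11.6-fold for Tagln, and WT dish 1 was 5.99-fold and 3.85-fold over WT dish 2. Cald1 (112831_at on U74Bv2), caldesmon, which binds actin and calmodulin, gave WT signals of 1942, 4856 and 4182 and STAT3-MER signals of 914, 5994 and 5431. It also was lowest in STAT3-MER dish 1, on all 3 of its probe sets. Cnn2 (94004_at), calponin 2, gave WT signals of 643, 1057 and 819 and STAT3-MER signals of 622, 649 and 778, without the low WT dish 2. The dimmer U74Cv2 probe sets of Acta2 (135098_at) and Cnn2 (133264_at) ran against the U74Av2 ones: Acta2 gave WT signals of 451, 223 and 219.7 and STAT3-MER signals of 453, 134 and 84.1, highest in STAT3-MER dish 1 within its group. For Cnn2 the U74Cv2 values were 378, 176 and 459.9 and 534, 61.3 and 71.3. Vim (101046_at), vimentin, the main intermediate filament of fibroblasts, gave only WT signals of 84.5, 90.0 and 62.6 and STAT3-MER signals of 55.1, 58.6 and 36.5. Cnn1, calponin 1, ranged from 57.1 to 223.

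Of the calcium and membrane binding proteins, S100a6 (92770_at), calcyclin, gave WT signals of 8195, 6881 and 14968 and STAT3-MER signals of 4131, 10898 and 14559.7. Anxa1 (93038_f_at), annexin A1, gave WT signals of 5231, 4029.8 and 7999 and STAT3-MER signals of 2342, 7813 and 6617. S100a6 was higher in STAT3-MER dish 3 than in dish 2, and Anxa1 the reverse. Cav1 (160280_at), caveolin 1, the coat protein of caveolae, gave WT signals of 1234, 466 and 1480.1 and STAT3-MER signals of 273, 2427 and 859, with dish 2 2.83-fold over dish 3. S100a4 (99051_at), a calcium-binding protein used as a fibroblast marker, was dimmer and had the dish order of S100a6, with WT signals of 323, 277 and 899 and STAT3-MER signals of 152, 444 and 675.

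Surface receptors and mesenchymal transcription factors bear on the label more directly. Thy1 (99057_at), a fibroblast surface glycoprotein, gave WT signals of 837, 377 and 1626 and STAT3-MER signals of 176, 1253 and 1353. Pdgfra (95079_at), the α receptor for platelet-derived growth factor, gave WT signals of 1082, 249 and 935 and STAT3-MER signals of 369, 1097 and 522. Vcam1 (92558_at), an adhesion receptor, gave WT signals of 496, 132 and 1217 and STAT3-MER signals of 94.0, 1002 and 847. All of these were lowest in STAT3-MER dish 1 and WT dish 2, and for Vcam1 the ratio of highest to lowest dish was 13.0. Cd44 (114697_at on U74Bv2), the hyaluronan receptor, gave WT signals of 1476, 1498 and 4575 and STAT3-MER signals of 1219.6, 2165 and 4785. Prrx1 (117099_at on U74Bv2), a homeobox factor of mesenchyme, gave WT signals of 201, 544 and 1313 and STAT3-MER signals of 96.4, 788 and 1738, an 18-fold range. These probe sets of Cd44 and Prrx1 were lowest in dish 1 and highest in dish 3 of both groups. The dimmer Cd44 probe set on that chip (109403_at) was highest in STAT3-MER dish 2 (2342 against 2267 in dish 3), and a dim Prrx1 probe set (116253_at, 48.1 to 197) was highest in WT dish 1. Twist1 (98028_at), a basic helix-loop-helix factor of mesenchyme, gave WT signals of 252, 339.9 and 299 and STAT3-MER signals of 275, 329 and 259, a 1.35-fold range without the common low dishes. Pdgfrb, the β receptor, ranged from 58.6 to 106. Among the genes taken here as fibroblast markers, Col1a1, Col1a2, Col3a1, Dcn, Lum, Postn, Thy1 and Prrx1 had such a low dish. Each had a probe set with a mean signal above 500 that was lowest of its group in STAT3-MER dish 1. Twist1 did not follow, and Pdgfrb stayed at or below 106, as did Vim, which is not one of these markers. Pdgfra is held by the list of endoderm markers instead, and its dim probe set 160332_at was lowest in STAT3-MER dish 3.

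The members did not all move as a single block on U74Av2. The median order of the 9 fibrillar collagen probe sets was dish 2, 1, 3 from low to high in WT and dish 1, 3, 2 in STAT3-MER. Of the 9 themselves, 3 had it in both groups (both Col3a1 probe sets and Col1a1 94305_at), 2 in WT only and 4, with both Col1a2 probe sets among them, in STAT3-MER only. Of the other 36 probe sets, 9 had this order in both groups (Timp1, Timp3, Cav1, Postn, Lum, Thbs2, 1 of 3 Vcam1 and 2 of 3 Anxa1 probe sets), against 3.30% of all probe sets of at least 200. In WT only it was found for 9 (9.39% of all), among them Tnc, S100a4, S100a6, Serpinh1 and Thy1. In STAT3-MER only it was found for 13 (18.3% of all), among them Acta2, Tagln, Lox, Dcn and Pdgfra. Neither group had it in 5 (69.0% of all), Col6a3, 1 of 2 Col6a1 probe sets, Cnn2, Twist1 and Mmp3.

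The order of the 4 dishes with the higher sums differed between members, and the first and second patterns given here had shares near those of all probe sets. STAT3-MER dish 2 exceeded dish 3 while WT dish 1 exceeded dish 3 in 14 of the 45 probe sets (35.5% of all), including Acta2, Tagln, Lox, Pdgfra and Col1a2. STAT3-MER dish 3 exceeded dish 2 while WT dish 3 exceeded dish 1 in 15 (31.6% of all), including Tnc, Mmp3, S100a4, S100a6, 1 of 2 Bgn probe sets, Serpinh1 and Thy1. STAT3-MER dish 2 with WT dish 3 was found in 16 (15.2% of all), and the remaining combination in 0 of 45 (17.7% of all). Between the ends, the ratio of STAT3-MER dish 2 to dish 3 ran from 0.320 for Tnc to 2.95 for the Col1a1 probe set 94305_at, and that of WT dish 1 to dish 3 from 0.182 for Mmp3 to 1.96 for Lox. This is a description across genes of the same arrays, which are not independent of each other.

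**Figure D3:**
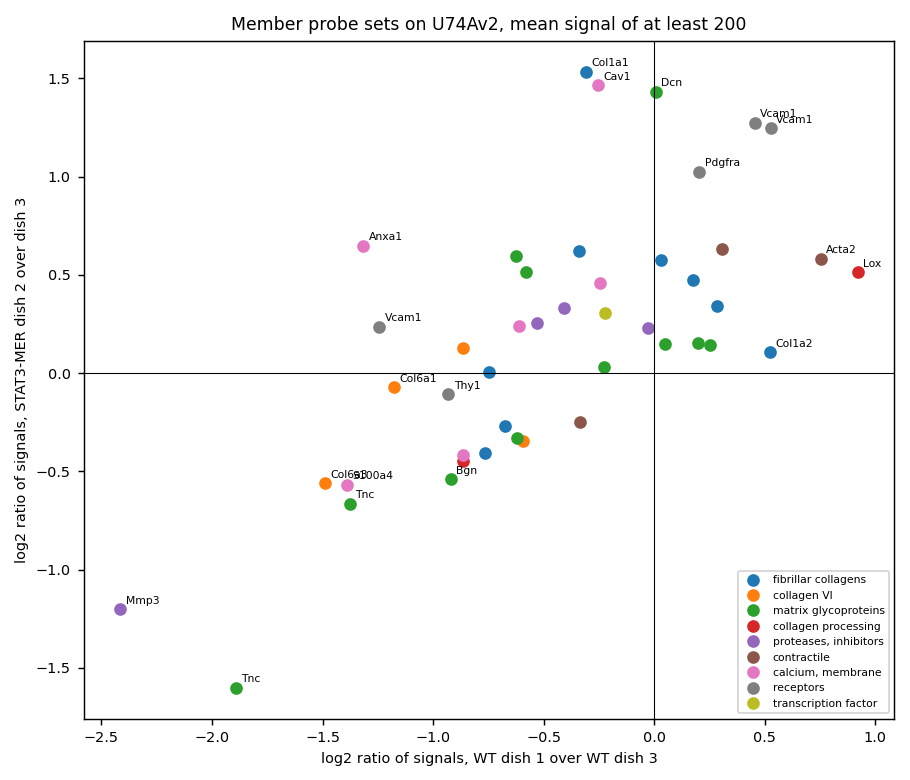
Each point is a member probe set on U74Av2 with a mean signal of at least 200, placed by the log2 ratio of WT dish 1 to WT dish 3 and that of STAT3-MER dish 2 to STAT3-MER dish 3, coloured by role. Tnc and Mmp3 lie at the lower left, Acta2, Lox, Pdgfra and 2 Vcam1 probe sets at the upper right, and no point at the lower right.

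On U74Bv2, 7 member probe sets (Cald1, Cd44, Prrx1 and Sparc) had a mean signal of at least 200, and all 7 were lowest in WT dish 1 and in STAT3-MER dish 1 (33.9% and 33.6% of all). Their summed signal over the WT dishes was 6142, 11707 and 15620, and over the STAT3-MER dishes 3333, 16592 and 20712. STAT3-MER dish 1 was thus 6.21-fold under the highest dish, as it had been low on U74Av2. On U74Cv2, 8 probe sets reached 200. STAT3-MER dish 1 was lowest in 4 of them (33.0% of all) and highest in 3 (36.3% of all). WT dish 1 was lowest in 4 (31.3% of all). The sums there were 22170, 33392 and 52611 for the WT dishes, against 13957, 39858 and 38332 for the STAT3-MER dishes. By these sums STAT3-MER dish 1 was lowest of its group and WT dish 3 highest of its group on each chip. The lowest WT dish was number 2 on U74Av2 and number 1 on the others. On U74Cv2 the low sum of STAT3-MER dish 1 came from Bgn 167023_f_at (3285, 21994 and 22653) and Col5a1 135189_f_at (1744, 9100 and 6345). In some genes read by different probe sets on more than 1 chip, WT dish 1 lay above dish 2 on U74Av2 and below it elsewhere. The ratio of dish 1 to dish 2 was 1.65 for Bgn on U74Av2 (96049_at) and 0.50 on U74Cv2, 1.96 and 0.634 for Thbs2, and 1.84 on U74Av2 and 0.350 on U74Bv2 for Sparc. On U74Av2 it was only 1.06 for Bgn 162347_f_at and 1.02 and 1.19 for Col5a1, against 0.517 for Col5a1 on U74Cv2. Col6a3, Acta2 and Cnn2 did not show this change, with ratios of 0.824, 5.99 and 0.608 on U74Av2 and of 1.57, 2.02 and 2.15 on U74Cv2.

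**Figure D4:**
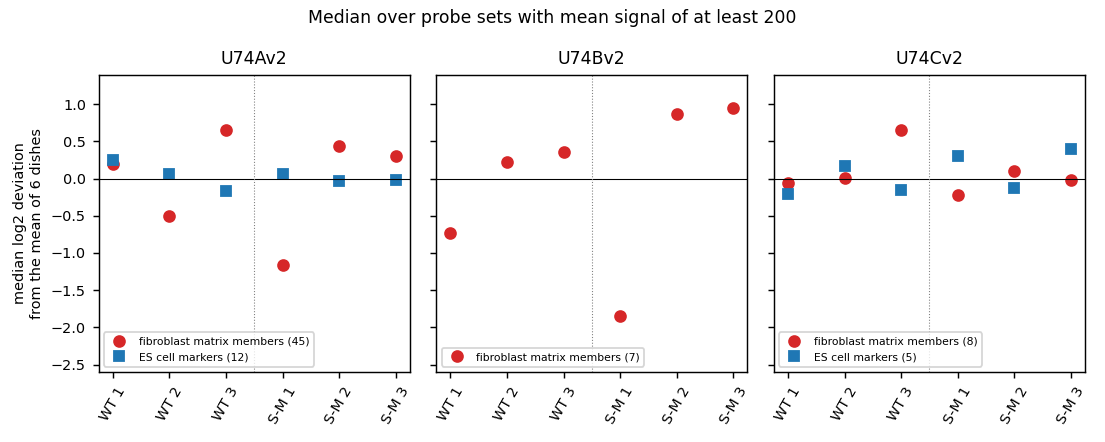
Median deviation of log2(signal + 32) from the mean of the 6 dishes, for member probe sets (red) and ES cell markers (blue) with a mean signal of at least 200, by dish and chip, with the number of probe sets in the legend (no ES cell marker had a probe set of its own on U74Bv2). The members drop in STAT3-MER dish 1 by 1.16 on U74Av2 and 1.85 on U74Bv2 but lie at -0.23 on U74Cv2, and the ES cell markers lie between -0.21 and 0.40.

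No member passed the adjusted threshold between WT and STAT3-MER. In a limma fit on log2(signal + 32), 0 of the 85 probe sets passed an adjusted p of 0.05 (lowest adjusted p 0.9996), against 0.00272% of all 36701 probe sets called higher in STAT3-MER, which is 1 probe set, and 0% called lower. At an unadjusted p under 0.05, 0 members were higher (1.88% of all) and 1 was lower (1.57% of all). That was Mmp3, with mean signals of 2516 ± 2166 in WT and 802 ± 410.1 in STAT3-MER (SD, n = 3), a log2 fold change of -1.36 (SE 0.58) and limma p-values of 0.0473 unadjusted and 0.9996 adjusted. Without WT dish 3, its change was -0.70. With 3 dishes against 3, an exact permutation test of a single probe set could not have gone below p = 0.1.

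The means of Col1a2, Acta2 and Bgn differed between the groups by less than the SD of either group. Col1a2 had mean signals of 7687 ± 3066 in WT and 7651 ± 5334 in STAT3-MER (SD, n = 3), Acta2 mean signals of 6295 ± 4472 in WT and 5456 ± 4530.2 in STAT3-MER (SD, n = 3) and Bgn on U74Cv2 mean signals of 19537 ± 10901 in WT and 15977 ± 10997 in STAT3-MER (SD, n = 3). The log2 fold change (STAT3-MER over WT) was -0.27 (SE 0.65) for Col1a2, -0.61 (SE 1.04) for Acta2, -0.56 (SE 0.71) for Bgn, -0.42 (SE 0.32) for Col6a3 on U74Cv2, -0.11 (SE 0.73) for Serpinh1, -0.11 (SE 0.35) for Timp1 and -0.12 (SE 0.48) for S100a6. It was 0.11 (SE 0.53) for Cd44 and 0.02 (SE 0.89) for Prrx1. The 95% interval of the change ran from -1.76 to 1.22 for Col1a2, from -3.00 to 1.79 for Acta2 and from -0.92 to 0.71 for Timp1. Sizeable changes in either direction were thus not detectable in this fit, which did not pair the dishes. Without STAT3-MER dish 1 the sign turned for Col1a2 (0.51), Acta2 (0.64), Bgn (0.36), Serpinh1 (0.53), Timp1 (0.22) and S100a6 (0.41), and without WT dish 3 for Serpinh1 (0.48), Timp1 (0.16) and S100a6 (0.21).

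More members were below 0 than above, and this rested on STAT3-MER dish 1 and WT dish 3. A log2 fold change below 0 was found for 69 of the 85 probe sets (81.2%), against 48.8% of all, and the median was -0.19, against 0.01 over all probe sets. With 1 probe set per gene, 39 of 44 genes were below 0. Without STAT3-MER dish 1, 30 of 85 were below 0 and the median was 0.22. Without WT dish 3, 44 were below 0 and the median was -0.035. By chip the median was -0.21 on U74Av2, 0.02 on U74Bv2, where 6 of 9 were above 0, and -0.34 on U74Cv2. Groups did not overlap in 1 of 85 member probe sets higher in STAT3-MER (1.18%, against 4.5% of all) and in 2 lower (2.35%, against 3.63% of all). These counts are too small to set the members apart. The higher one was Timp2 (168621_i_at), with a log2 fold change of 0.20 (SE 0.19). The lower ones were 2 dim probe sets, Vim (-0.44, SE 0.26) and Mmp2 95663_at (-0.28, SE 0.13). Both of these lower values moved with the pseudocount, from -0.59 at 8 to -0.25 at 100 for Vim and from -0.63 to -0.11 for Mmp2. The Mmp2 signals of the WT dishes were 16.0, 17.7 and 16.3, and those of the STAT3-MER dishes 6.30, 6.56 and 11.4. Each of these had an adjusted p of 0.9996 in the limma fit.

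**Figure D5:**
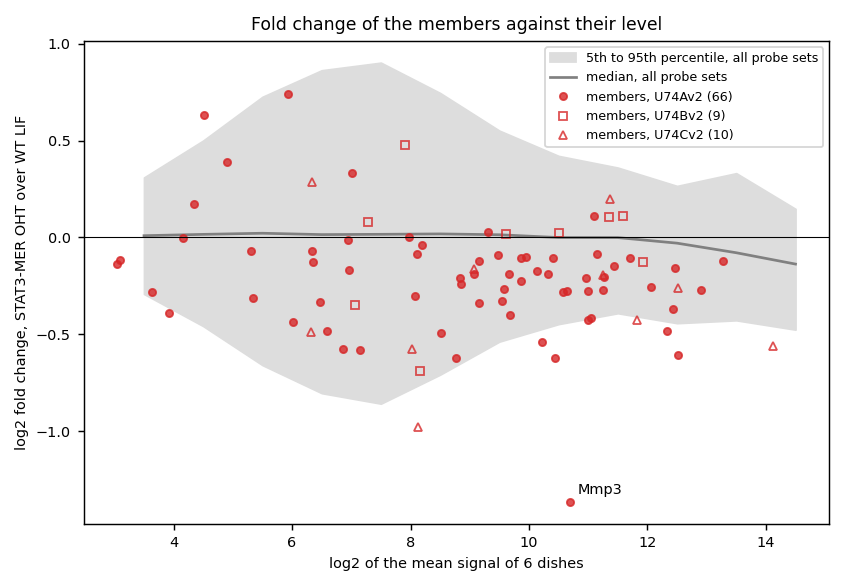
Log2 fold change (STAT3-MER OHT over WT LIF) of the 85 member probe sets against the log2 of their mean signal, over the range from the 5th to the 95th percentile of all probe sets (grey). Most members lie below 0 but inside the grey range, and Mmp3 at -1.36 lies lowest. Other members below the range include Acta2 93100_at, Bgn 167023_f_at, Dcn, Lum and Col1a1 94305_at, and a dim Tgfbi probe set lies above it.

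Other matrix and fibroblast genes, a list of 54 genes without the members, had 107 probe sets from 48 genes. None passed the adjusted threshold (0 of 107 in the limma fit), 64 were below 0 (48.8% of all probe sets were), and 6 had an unadjusted p under 0.05 (1268 of all 36701 had). On U74Av2 the same low dishes were found there too. STAT3-MER dish 1 was lowest in 23 of 35 probe sets of at least 200 (36.0% of all) and WT dish 2 in 21 (29.8% of all). The median ratio of highest to lowest dish was 3.53, between that of the members and that of all probe sets. On U74Bv2 STAT3-MER dish 1 was lowest in 5 of 11 (33.6% of all), and on U74Cv2 in 6 of 13 (33.0% of all). WT dish 1 was lowest in 7 and 6 of these (33.9% and 31.3% of all). The median log2 deviation of STAT3-MER dish 1 on U74Bv2 was -0.15, against -1.85 for the members. ES cell markers (12 genes, 20 probe sets) had 15 above 0 and a median of 0.15, and 0 of 20 passed. Dppa3 alone had an unadjusted limma p under 0.05 (0.0067, adjusted 0.9996), with a log2 fold change of -1.09 and groups that did not overlap. Among 12 ES marker probe sets on U74Av2, STAT3-MER dish 1 was lowest in 4 and WT dish 2 in 1. Markers of primitive and parietal endoderm on U74Av2 summed to 584 to 1986 in WT and 889 to 1470 in STAT3-MER over 4 probe sets, which leave out Pdgfra, a member that this list also holds. They were highest in WT dish 1 and lowest in WT dish 2. Within STAT3-MER they were lowest in dish 1 (889, 1470 and 1022 in dishes 1, 2 and 3), as the members were. On U74Bv2 and U74Cv2, with 2 probe sets each, STAT3-MER dish 1 was instead the highest of its group (1131 and 5187). The part of the endoderm markers in the member signals was not tested.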

How the data were processed

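RNA of 6 dishes was amplified in 2 rounds, biotin-labelled and hybridized to the 3 chips, which gives 18 arrays. The deposited files hold 1 signal intensity per probe set and array, linear and scaled by the authors, and the submitters' processing notes name MAS5. Groups come from the sample labels. A U74Av2 array without a number in its label was given number 2. The dishes of a group come from a single line, so p-values measure the spread between dishes. The number of arrays limits the precision.

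Arrays of a chip were set to a common trimmed mean (without the lowest and highest 2%), and log2(signal + 32) was fitted chip by chip in R 4.3.3 by limma 3.58.1 (lmFit, then eBayes with a trend, two-sided tests), with Benjamini-Hochberg adjustment over 36701 probe sets that are not controls and a threshold of 0.05. Probe sets were named from the chip annotation (29131 with 1 gene, 724 with several, 6846 with none). Every member is named, and dish values are given for the brightest probe set of each member with a mean signal of at least 500, for probe sets with an unadjusted p under 0.05 and for some others chosen after their values were seen. The limit of 200 for dish orders is a working limit, not a detection call. Members and lists were chosen with earlier results of these data known. The fit was run on simulated data to check its estimates of known changes. Those data had no dish effects shared between probe sets, unlike the members here. Start-site sequences come from RefSeq. Python tools were pandas 2.3.3, numpy 2.4.6 and matplotlib 3.10.9. Alternatives were other scalings, pseudocounts, filters and variance models, a replicate block, each dish left out and the methods' t-test.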

Additional observations from a re-analysis of the deposited data

How the results depend on the processing

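No member passed the adjusted threshold in limma under quantile normalization, scaling by the median, no rescaling, a pseudocount of 8 or 100, a mean signal of at least 200, no trend, adjustment within each chip, a replicate block or any dish left out (0 higher and 0 lower each time). The methods' t-test (p under 0.1, ratio over 1.5, difference over 100) called 405 probe sets higher and 320 lower, 0 of them members, and after Benjamini-Hochberg 0. The median of the members over all chips lay between -0.21 and -0.16 under the settings that kept all dishes, and between -0.42 and 0.22 with a dish left out. With a dish left out, probe sets called higher were 1 to 2, and the median on U74Cv2 was -0.41 to -0.11. Changes whose sign turned with a dish left out ranged from -0.81 to 0.51 for Col1a2, from -1.03 to 0.36 for Bgn, from -0.85 to 0.53 for Serpinh1, from -0.38 to 0.22 for Timp1, from -1.38 to 0.64 for Acta2, from -0.49 to 0.41 for S100a6, from -0.41 to 0.64 for Cd44 and from -0.80 to 1.09 for Prrx1, for which a pseudocount of 8 gave -0.024. The changes of Mmp3 (-1.91 to -0.70), Col6a3, Timp2, Mmp2 and Vim kept their sign, those of the dim Mmp2 (-0.63 to -0.11) and Vim (-0.59 to -0.25) probe sets moving with the pseudocount. The shares of members with the low dishes on U74Av2 moved by under 3 percentage points. On U74Cv2, 1 of 7 members shared the order of Col5a1 (14.3%, against 2.72% of all probe sets of at least 200). The share was 28.6% with quantile normalization (2.84% of all) and 0% at a mean signal of at least 1000 (4.06% of all).

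Same-numbered dishes did not deviate together on every chip: the correlations of deviations from the group means were -0.30, -0.33 and 0.29 on U74Av2, 0.18, 0.21 and 0.13 on U74Bv2 and 0.11, 0.13 and 0.07 on U74Cv2. On U74Av2, STAT3-MER dish 2 deviated with WT dish 1 (0.46) and dish 1 with WT dish 2 (0.41). With the replicate block, 1 probe set was called higher and 0 lower, and 0 members (adjusted p of Mmp3 0.9995). The block lowered the SE of Bgn on U74Cv2 to 0.29, of Cd44 to 0.20, of Prrx1 to 0.33 and of Mmp3 on U74Av2 from 0.58 to 0.31. It lowered that of Col6a3 on U74Cv2 to 0.20 and of S100a6 to 0.35, but not that of Col1a2 (0.66) or Acta2 (1.11). It joined dishes by number, and no fit paired STAT3-MER dish 2 with WT dish 1, or dish 1 with WT dish 2, on U74Av2. Values without WT dish 1 or 2 may leave out arrays of different dishes on different chips.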
